A study of Schmidtea mediterranea with 18 samples.

Results

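Afadin (AFDN), discs large (DLG) and RASSF1 are junction, polarity and adaptor genes that the study lists for spindle orientation and microtubule dynamics, among its cell cycle genes downstream of Hippo. All transcripts of the deposited table that carry the 3 assembly numbers given for these genes were taken, which gave 4 transcripts of 41745. AFDN was dd_Smed_v6_9564_0_1, DLG was dd_Smed_v6_8293_0_1, and RASSF1 had the transcripts dd_Smed_v6_3858_0_1 and dd_Smed_v6_3858_0_2, which were also summed. The names rest on homology as the study assigned it. The study picked its list from these same libraries, so a call for a listed gene is not independent evidence of its direction.

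RNA came from whole asexual planarians (*S. mediterranea*) of the BCN-10 clonal line. Groups were *hippo (RNAi)* animals and *gfp (RNAi)* controls at 1, 3 and 4 weeks. The controls received double-stranded RNA for a gene absent from planarians, and the methods describe repeated injection in starved animals. In the paper's design for intact animals, starvation began 1 week before injection and did not end during the experiment. Within a treatment, weeks of inhibition and weeks of starvation thus cannot be told apart. Each of the 6 groups had 3 libraries of 5 pooled animals, and no label tells whether the pools of a group were injected separately, so p-values measure the spread between these pools.

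In the Hippo pathway a kinase cascade, headed by the kinase Hippo (Mst in mammals) and continued by Warts (Lats), phosphorylates the coactivator Yorkie (YAP) and keeps it out of the nucleus. The pathway restrains proliferation in many tissues and receives input from cell junctions and polarity complexes. In flies and mammals, cortical scaffolds such as Discs large and afadin take part in placing the mitotic spindle relative to cell polarity, and mammalian RASSF1 binds the Hippo kinases as an adaptor and associates with microtubules.

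Values were TPM, a relative abundance within a library that is corrected for transcript length. The 50 most abundant transcripts held between 21.6% and 22.9% of the TPM of a library, and within groups Spearman's rho of pairs of libraries ran from 0.94 to 0.96 over all transcripts. TPM keep no read depth, so no counting error can be given. Of the *hippo (RNAi)* libraries, 2 at 3 weeks (266O, 267O) and 2 at 4 weeks (268O, 269O) carry numbers apart from all others, while 260O and 264O are numbered next to their controls. No name in the sources used here was paired with the transcript of *hippo* or of a tissue marker, so neither the knockdown nor the tissue was checked in these values. In whole animals, a change in the share of cells that express a gene and a change in RNA per cell cannot be told apart.

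Levels were compared as log2(TPM + 1) in limma over the 28735 transcripts that averaged 1 TPM or more, all 4 transcripts included, and those with a Benjamini-Hochberg adjusted p under 0.05 over the tested table were called. Fold changes are on this scale and understate the change of low values. AFDN averaged 12.02 TPM and DLG 14.7 TPM over the 18 libraries, above 66.98% and 71.5% of the tested transcripts. For RASSF1, dd_Smed_v6_3858_0_2 averaged 33.6 TPM and dd_Smed_v6_3858_0_1 averaged 23.7 TPM.

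AFDN, a scaffold that links nectin adhesion molecules to actin at adherens junctions, was higher after *hippo* inhibition for 3 and 4 weeks, by 28.6% and 32.0% in mean TPM. At 1 week, it measured 11.1, 11.5 and 12.5 TPM in *hippo (RNAi)* libraries, against 10.8, 10.5 and 11.1 TPM in *gfp (RNAi)* libraries. The *hippo (RNAi)* libraries were all above the controls, though the nearest pair both rounded to 11.1 TPM. At 3 weeks, it measured 13.8, 13.4 and 13.8 TPM in *hippo (RNAi)* libraries, against 10.4, 10.6 and 10.9 TPM in *gfp (RNAi)* libraries. At 4 weeks, it measured 14.1, 14.6 and 14.4 TPM in *hippo (RNAi)* libraries, against 10.9, 10.9 and 10.9 TPM in *gfp (RNAi)* libraries. At both later times the groups were separated by more than 2 TPM, while no group spanned more than 0.5 TPM.

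The log2 fold change of AFDN was 0.10 at 1 week (standard error 0.04, 95% interval 0.01 to 0.19), which was not called among all transcripts (adjusted p = 0.309 from limma). It was 0.34 at 3 weeks (95% interval 0.25 to 0.42) and 0.37 at 4 weeks (95% interval 0.28 to 0.46), both called (adjusted p = 2.71e-05 and 7.12e-06 from limma). Averaged over the 3 time points it was 0.27 (standard error 0.02, adjusted p = 4.2e-07 from limma). These were moderate values for this experiment, since 16.5% of the tested transcripts, called or not, had a larger estimate in either direction at 3 weeks and 17.1% at 4 weeks. The median standard error of all tested transcripts was 0.11, against 0.04 for AFDN. The deviation of single libraries from their group mean was small for AFDN, with a standard deviation of 0.039 on the log2 scale. Of the 4701 tested transcripts within 0.5 log2 units of its abundance, 96.7% had a larger one.

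**Figure D1:**
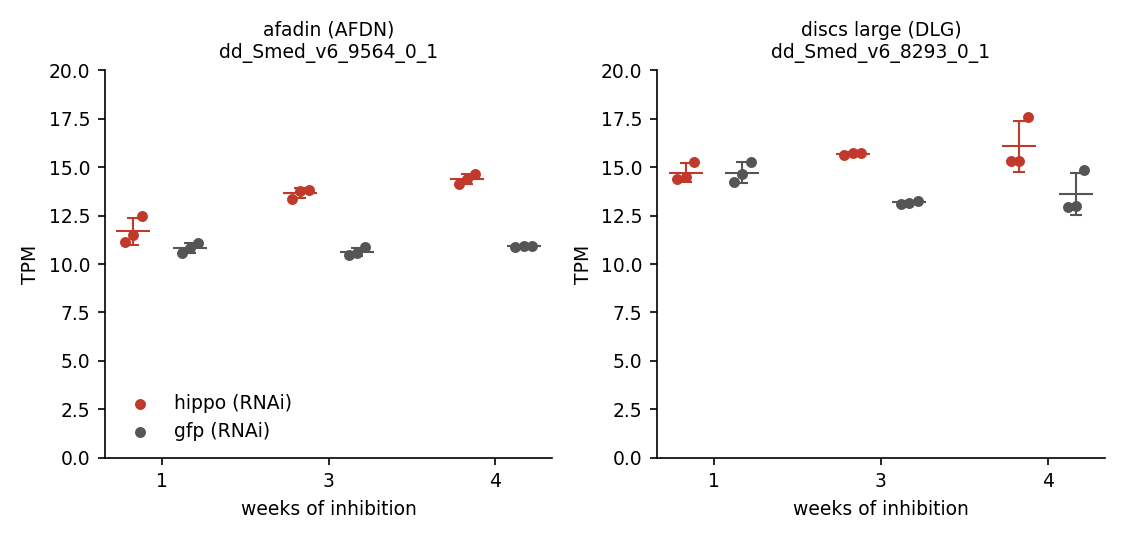
TPM of AFDN (left) and DLG (right) in each library (points) by weeks of inhibition, with *hippo (RNAi)* in red left of *gfp (RNAi)* in grey; the dash and bar give mean and SD (n = 3). AFDN of *hippo (RNAi)* animals lies at 13.4 TPM or more from 3 weeks on, and its controls never exceed 11.1 TPM, whereas the DLG groups overlap at 1 week and separate at 3 and 4 weeks.

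In *hippo (RNAi)* animals the AFDN group means rose with the weeks of inhibition, which were also weeks of starvation. From the highest down, they were 14.4 ± 0.24 TPM (SD, n = 3) at 4 weeks, 13.7 ± 0.26 TPM at 3 weeks and 11.7 ± 0.70 TPM at 1 week. No library of one of these groups reached into the next, though the nearest of 4 and 3 weeks were at 14.1 and 13.8 TPM. How many of all transcripts are separated in this order was not counted. The controls followed at 10.9 ± 0.028 TPM at 4 weeks, 10.8 ± 0.27 TPM at 1 week and 10.6 ± 0.22 TPM at 3 weeks, and neighbours among them overlapped. Within *hippo (RNAi)* animals, 4 weeks exceeded 1 week by a log2 fold change of 0.28 (95% interval 0.19 to 0.37), which was called (adjusted p = 0.000259 from limma). Within controls the same comparison gave 0.01 (95% interval -0.08 to 0.10, adjusted p = 0.95 from limma).

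The effect of *hippo* RNAi on AFDN was thus compared between time points. It was larger at 4 weeks than at 1 week by 0.27 on the log2 scale (95% interval 0.15 to 0.39, adjusted p = 0.00744 from limma), a call that was lost when libraries 266O to 269O were left out together (0.29, adjusted p = 0.0802 from limma). It was larger at 3 weeks than at 1 week by 0.23 (standard error 0.06, adjusted p = 0.0286 from limma). The call at 3 weeks against 1 week was lost without any one of libraries 249O, 251O, 257O or 258O of the controls, or 252O, 253O, 260O or 266O of *hippo (RNAi)* animals, with values between 0.20 and 0.23 (adjusted p between 0.053 and 0.0758 from limma). From 3 to 4 weeks the effect differed by 0.04 (95% interval -0.09 to 0.16, adjusted p = 0.954 from limma).

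DLG encodes a scaffold of the membrane-associated guanylate kinase family, which in flies acts with Scribble and Lethal giant larvae at the basolateral cortex and is a tumor suppressor. It was higher in *hippo (RNAi)* animals at 3 and 4 weeks, by 19.2% and 18.2% in mean TPM. At 1 week, it measured 15.3, 14.5 and 14.4 TPM in *hippo (RNAi)* libraries, against 14.2, 14.7 and 15.3 TPM in *gfp (RNAi)* libraries, so the groups overlapped. At 3 weeks, it measured 15.7, 15.6 and 15.7 TPM in *hippo (RNAi)* libraries, against 13.2, 13.1 and 13.3 TPM in *gfp (RNAi)* libraries. These groups were far tighter than those of the other weeks. At 4 weeks, it measured 17.6, 15.3 and 15.3 TPM in *hippo (RNAi)* libraries, against 14.9, 13.0 and 13.0 TPM in *gfp (RNAi)* libraries. One library of each group, 268O in *hippo (RNAi)* animals and 261O in controls, stood above the other two, and the groups still did not overlap.

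The log2 fold change of DLG was 0.24 at 3 weeks (95% interval 0.12 to 0.36) and 0.23 at 4 weeks (95% interval 0.10 to 0.35), both called (adjusted p = 0.00877 and 0.00891 from limma). At 1 week the difference was close to 0, with an interval from -0.12 to 0.12 (adjusted p = 1 from limma). The average over the 3 time points was 0.15 (standard error 0.03, adjusted p = 0.00225 from limma). Leaving out library 268O brought the 4-week value to 0.16, which just missed the threshold (adjusted p = 0.0502 from limma). At 3 weeks 27.5% of the tested transcripts, called or not, had a larger estimate in either direction, and at 4 weeks 35.1% did.

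Unlike for AFDN, neither arm of the DLG comparison passed the test over time on its own. *hippo (RNAi)* animals averaged 14.7, 15.7 and 16.1 TPM at 1, 3 and 4 weeks, against 14.7, 13.2 and 13.6 TPM in controls. From 1 to 4 weeks the log2 fold change was 0.12 in *hippo (RNAi)* animals (95% interval -0.0033 to 0.24, adjusted p = 0.217 from limma) and -0.11 in controls (95% interval -0.23 to 0.01, adjusted p = 0.454 from limma). The effect of *hippo* RNAi at 3 weeks minus that at 1 week was 0.24 (standard error 0.08), and that at 4 weeks minus 1 week was 0.23, neither of them called (adjusted p = 0.12 and 0.1 from limma). Without control library 261O the 4-week effect exceeded that at 1 week by 0.29, which passed the threshold (adjusted p = 0.0276 from limma). Between 4 weeks and 3 weeks the effect differed by -0.01 (95% interval -0.18 to 0.16, adjusted p = 0.994 from limma).

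Averaged over the 3 time points, AFDN differed more from its controls than DLG did. Per library, log2(AFDN TPM + 1) minus log2(DLG TPM + 1) was higher in *hippo (RNAi)* animals than in controls by 0.10, 0.10 and 0.15 at 1, 3 and 4 weeks. The average of 0.12 (interval 0.03 to 0.20) gave p = 0.00875 in an exact two-sided permutation test of the treatment labels within time points over 18 libraries, where 0.00025 is the smallest value possible. Leaving out each library in turn left the average between 0.10 and 0.14 (exact p between 0.00125 and 0.026). The average includes 1 week, at which neither gene was called, and the later weeks alone were not tested. The pair was compared with these values in view.

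RASSF1, an adaptor with a Ras association domain that is known in mammals as a tumor suppressor, was lower in *hippo (RNAi)* animals at 3 and 4 weeks when its transcripts were summed. Mean summed TPM dropped by 14.4% at 3 weeks and 16.3% at 4 weeks. At 1 week, the sum was 59.2, 59.9 and 57.6 TPM in *hippo (RNAi)* libraries, against 61.7, 59.1 and 57.98 TPM in *gfp (RNAi)* libraries, so the groups overlapped. At 3 weeks, it was 50.6, 50.6 and 51.9 TPM in *hippo (RNAi)* libraries, against 61.4, 58.1 and 59.4 TPM in *gfp (RNAi)* libraries. At 4 weeks, it was 52.7, 50.3 and 53.3 TPM in *hippo (RNAi)* libraries, against 63.0, 60.2 and 63.4 TPM in *gfp (RNAi)* libraries. Every *hippo (RNAi)* library of the later weeks was at least 6 TPM below every control of its week. For summed values, the share of all assembly numbers whose groups do not overlap was not counted.

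**Figure D2:**
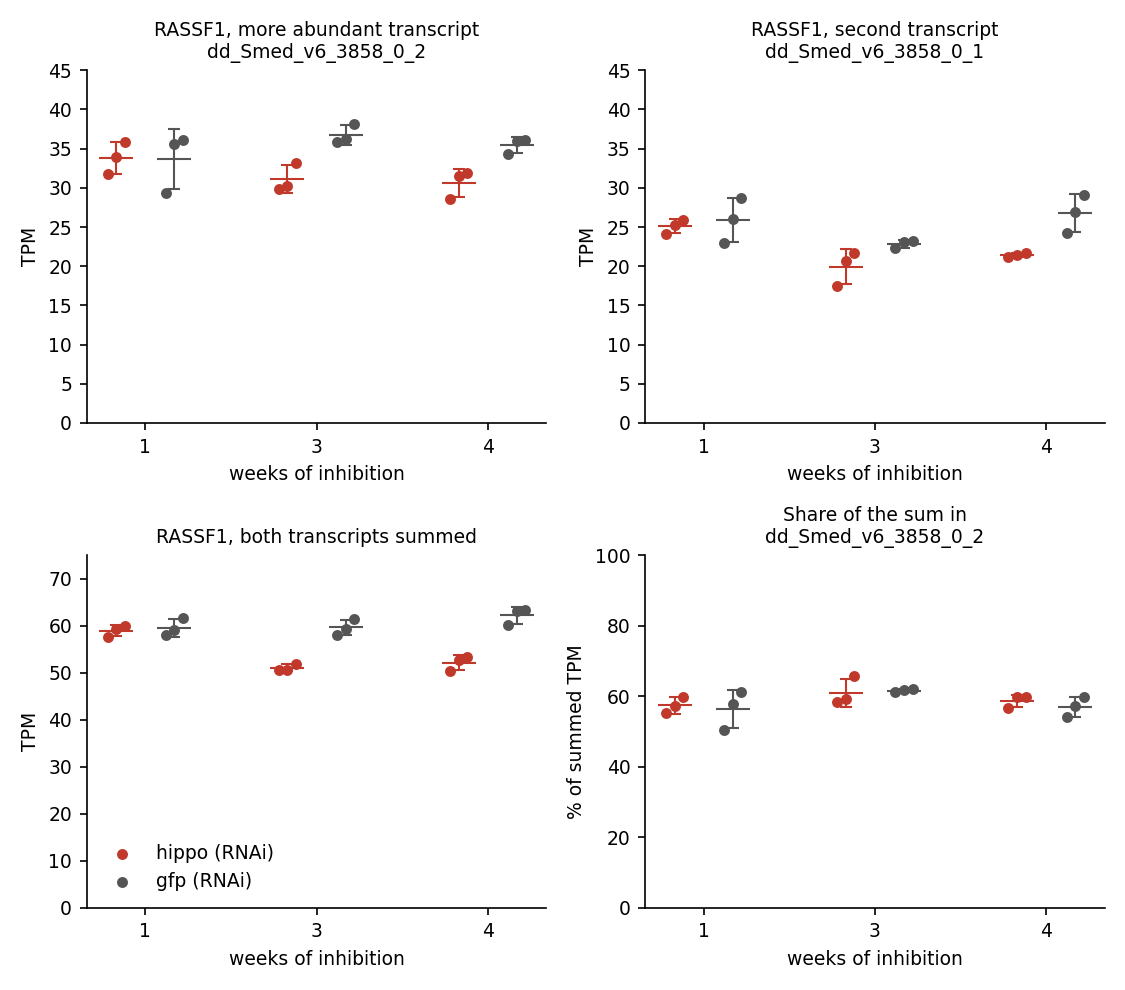
RASSF1 by weeks of inhibition in each library (points), *hippo (RNAi)* in red left of *gfp (RNAi)* in grey, with mean and SD (n = 3): TPM of each transcript (top), summed TPM (lower left) and the share of the sum in dd_Smed_v6_3858_0_2 (lower right). The single transcripts scatter within groups, while the sum of *hippo (RNAi)* animals lies between 50.3 and 53.3 TPM at 3 and 4 weeks and its controls between 58.1 and 63.4 TPM.

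For the sum, TPM were added within each assembly number over the whole table and the same limma fit was run on the 22429 numbers with a mean of at least 1 TPM. The log2 fold change of the RASSF1 sum was -0.02 at 1 week (95% interval -0.08 to 0.05, adjusted p = 0.881 from limma). It was -0.22 at 3 weeks (95% interval -0.29 to -0.15) and -0.25 at 4 weeks (95% interval -0.32 to -0.18), both called (adjusted p = 0.000109 and 2.01e-05 from limma). The average of -0.16 was called as well (standard error 0.019, adjusted p = 4.54e-06 from limma). In this summed fit 1.36%, 20.3%, 28.2% and 32.0% of all numbers were called at 1, 3 and 4 weeks and in the average. Estimates larger than that of RASSF1 in either direction, called or not, were seen for 25.8% of the numbers at 3 weeks and 26.7% at 4 weeks.

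The fall of the RASSF1 sum was not present at 1 week. The effect at 3 weeks was more negative than at 1 week by -0.20 (95% interval -0.30 to -0.11, adjusted p = 0.0112 from limma), and at 4 weeks by -0.24 (95% interval -0.33 to -0.14, adjusted p = 0.00258 from limma). Of all numbers 7.38% and 13.3% were called in these comparisons. Between 4 weeks and 3 weeks it differed by -0.03 (95% interval -0.13 to 0.07, adjusted p = 0.932 from limma), where 0.00892% of the numbers were called. From 1 to 4 weeks the sum fell by 0.17 on the log2 scale within *hippo (RNAi)* animals (adjusted p = 0.00127 from limma, 17.4% of the numbers called). Within controls the log2 fold change was 0.06 (95% interval -0.01 to 0.13, adjusted p = 0.407 from limma, 1.68% of the numbers called). The group means fell into an upper set, the controls at 62.2 ± 1.76, 59.6 ± 1.66 and 59.6 ± 1.92 TPM at 4, 3 and 1 weeks with *hippo (RNAi)* animals of 1 week at 58.9 ± 1.20 TPM (SD, n = 3 each), whose neighbours overlapped. *hippo (RNAi)* animals of 4 and 3 weeks followed at 52.1 ± 1.60 and 51.0 ± 0.75 TPM, overlapping each other and no other group.

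Taken singly, the RASSF1 transcripts gave less settled calls than their sum. At 1 week, dd_Smed_v6_3858_0_2 measured 34.0, 35.8 and 31.7 TPM in *hippo (RNAi)* libraries, against 35.6, 36.1 and 29.3 TPM in *gfp (RNAi)* libraries. At 3 weeks, it measured 29.9, 33.2 and 30.3 TPM in *hippo (RNAi)* libraries, against 38.1, 35.8 and 36.3 TPM in *gfp (RNAi)* libraries. At 4 weeks, it measured 31.5, 28.5 and 31.8 TPM in *hippo (RNAi)* libraries, against 36.1, 36.0 and 34.3 TPM in *gfp (RNAi)* libraries. The groups of this transcript overlapped at 1 week and were apart at 3 and 4 weeks, with all *hippo (RNAi)* libraries lower.

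For dd_Smed_v6_3858_0_2 the log2 fold change of -0.23 at 3 weeks was called (adjusted p = 0.0369 from limma), but this call needed each of 5 libraries, 257O, 258O and 259O among controls and 260O and 266O among *hippo (RNAi)* animals, since leaving any one out left values between -0.25 and -0.21 (adjusted p between 0.0589 and 0.133 from limma). At 4 weeks it was -0.21 (95% interval -0.36 to -0.06) and narrowly missed the threshold (adjusted p = 0.0506 from limma). The same -0.21 passed the threshold when one library of another week was left out, namely 249O, 250O or 251O of the controls or 254O or 267O of *hippo (RNAi)* animals (adjusted p between 0.0109 and 0.0487 from limma). The value at 1 week was 0.01 (95% interval -0.14 to 0.16, adjusted p = 0.972 from limma), and the average of -0.14 was called (adjusted p = 0.0173 from limma).

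The less abundant transcript, dd_Smed_v6_3858_0_1, measured 25.3, 24.1 and 25.9 TPM in *hippo (RNAi)* libraries at 1 week, against 26.1, 23.0 and 28.7 TPM in *gfp (RNAi)* libraries. At 3 weeks, it measured 20.7, 17.4 and 21.6 TPM in *hippo (RNAi)* libraries, against 23.3, 22.3 and 23.1 TPM in *gfp (RNAi)* libraries. At 4 weeks, it measured 21.2, 21.7 and 21.5 TPM in *hippo (RNAi)* libraries, against 27.0, 24.2 and 29.1 TPM in *gfp (RNAi)* libraries. Here too the groups overlapped only at 1 week. Its log2 fold changes were -0.04 at 1 week, -0.20 at 3 weeks and -0.30 at 4 weeks, of which the last was called (adjusted p = 0.899, 0.138 and 0.0154 from limma). Leaving out control library 263O brought the last to -0.24, which missed the threshold (adjusted p = 0.0804 from limma). The average of -0.18 was called (adjusted p = 0.0107 from limma).

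The transcripts of RASSF1 moved against each other between libraries of the same group. After removal of the group means, the Pearson correlation of their log2(TPM + 1) over the 18 libraries was -0.70, given as a description. A value near this was also seen outside the pair. By the same measure AFDN, of another assembly number, gave -0.65 with dd_Smed_v6_3858_0_2 and 0.48 with dd_Smed_v6_3858_0_1. DLG gave -0.01 and 0.10 with these transcripts. Control library 251O, for instance, held the lowest dd_Smed_v6_3858_0_2 value of the controls (29.3 TPM) with one of the highest values of dd_Smed_v6_3858_0_1 (28.7 TPM). *hippo (RNAi)* library 267O held the lowest value of dd_Smed_v6_3858_0_1 of all libraries, 17.4 TPM. The standard deviation within groups on the log2 scale was 0.092 for dd_Smed_v6_3858_0_2 and 0.11 for dd_Smed_v6_3858_0_1, and 0.038 for the sum. kallisto divides reads among transcripts that share sequence. The sequences of the RASSF1 transcripts were not compared here, and whether such a division had any part in the opposite scatter was not tested.

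The share of the sum assigned to dd_Smed_v6_3858_0_2 did not separate the treatments. It was 57.4 ± 2.35% in *hippo (RNAi)* animals and 56.5 ± 5.40% in controls at 1 week (SD, n = 3 each). At 3 weeks it was 61.0 ± 4.00% in *hippo (RNAi)* animals and 61.6 ± 0.52% in controls, and at 4 weeks 58.8 ± 1.72% in *hippo (RNAi)* animals and 57.1 ± 2.82% in controls. The groups overlapped at every time point. The average difference was 0.67 percentage points (interval -2.35 to 3.79), with p = 0.647 in the exact two-sided permutation test within time points over 18 libraries. Its sign changed without control library 251O (-0.32 percentage points) and without *hippo (RNAi)* library 267O (-0.093 percentage points).

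**Figure D3:**
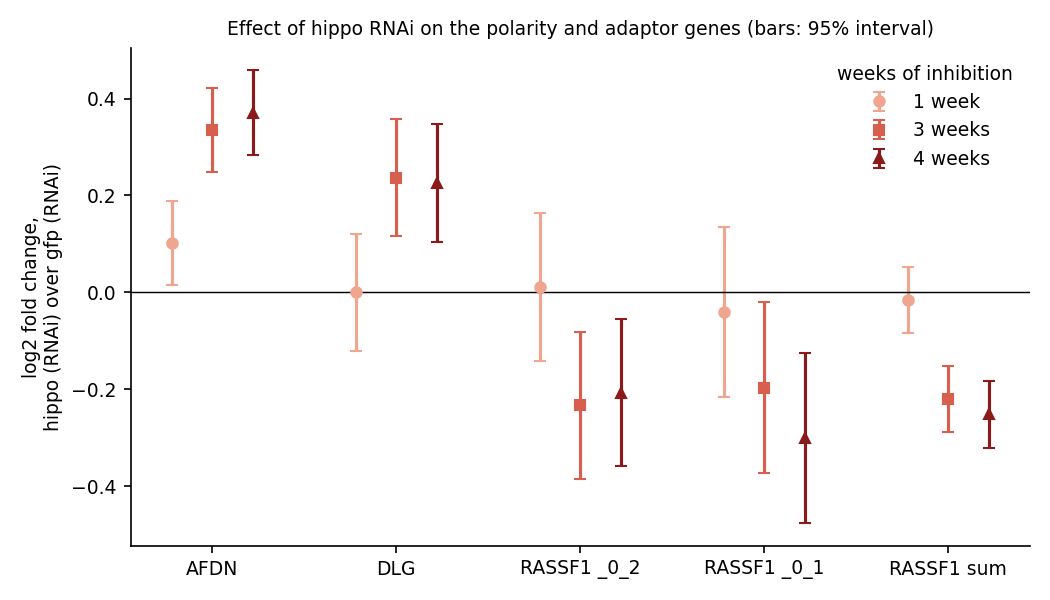
Log2 fold change of *hippo (RNAi)* over *gfp (RNAi)* animals at 1, 3 and 4 weeks for AFDN, DLG, each RASSF1 transcript and the RASSF1 sum; points are limma estimates and bars 95% intervals. At 3 and 4 weeks AFDN and DLG lie above 0 (0.23 to 0.37) and RASSF1 below it (-0.30 to -0.20), and the intervals of the RASSF1 sum are the narrowest of RASSF1.

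Counted over the 4 transcripts, none was called at 1 week in limma, where 0.849% of all tested transcripts were, and 1, AFDN, was at an unadjusted p under 0.05, as were 3595 of the 28735 tested transcripts. At 3 weeks 2 were called higher and 1 lower, against 15.5% called among all tested. At 4 weeks 2 were called higher and 1 lower, against 21.6%. In the average over time points 2 were called higher and 2 lower, against 25.5%. Over the whole tested table the median log2 fold change was 0.0030 at 3 weeks and 0.0023 at 4 weeks. For the effects at 3 weeks and at 4 weeks, each minus that at 1 week, AFDN was the single transcript called of the 4, against 5.11% and 9.72% of all tested. AFDN was also the single transcript of the 4 called within *hippo (RNAi)* animals from 1 to 4 weeks, against 12.8%. None was called within controls, against 1.01%, or between the effects at 4 weeks and 3 weeks, against 0.0104%, and none of the 4 had an unadjusted p under 0.05 there. The 4 transcripts had groups that did not overlap at 3 weeks and at 4 weeks, which was the case for 31.7% and 36.7% of all tested transcripts. At 1 week only AFDN did, against 14.9%.

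**Figure D4:**
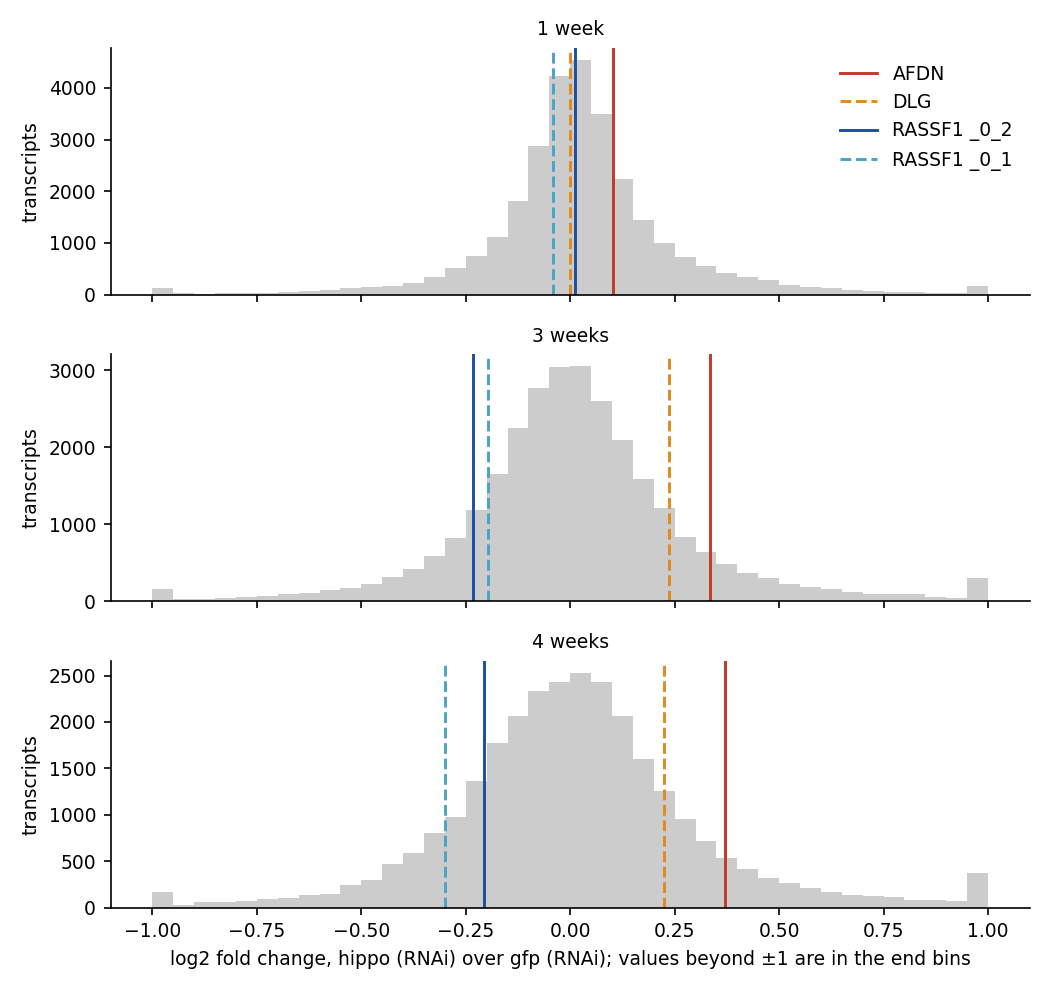
Distribution of the log2 fold changes of *hippo (RNAi)* over *gfp (RNAi)* animals over the 28735 tested transcripts (grey bars, number of transcripts per bin) at 1, 3 and 4 weeks, with lines for AFDN, DLG and the RASSF1 transcripts. The lines lie near the centre at 1 week and on the flanks of the distribution at 3 and 4 weeks, not in its tails.

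Libraries 266O to 269O, numbered away from the controls, were set beside the *hippo (RNAi)* library of the same week whose number is next to those of the controls. At 3 weeks AFDN was at 13.8 and 13.4 TPM in 266O and 267O and at 13.8 TPM in 260O, and at 4 weeks at 14.1 and 14.4 TPM in 268O and 269O and at 14.6 TPM in 264O. The RASSF1 sum was at 50.6 and 50.6 TPM in 266O and 267O and at 51.9 TPM in 260O, and at 52.7 and 53.3 TPM in 268O and 269O and at 50.3 TPM in 264O. DLG at 4 weeks was at 17.6 TPM in 268O, but at 15.3 TPM in both 269O and 264O. The single RASSF1 transcripts differed more than their sum. At 3 weeks dd_Smed_v6_3858_0_1 was at 20.7 and 17.4 TPM in 266O and 267O and at 21.6 TPM in 260O, and the share of dd_Smed_v6_3858_0_2 was 59.1% and 65.6% in 266O and 267O and 58.3% in 260O. At 4 weeks dd_Smed_v6_3858_0_2 was at 31.5 and 31.8 TPM in 268O and 269O and at 28.5 TPM in 264O. With these 4 libraries left out, 1 *hippo (RNAi)* library remained at each of 3 and 4 weeks, which is assumed to vary like the other groups. At 3 and 4 weeks AFDN then stood at 0.35 and 0.39 on the log2 scale and the RASSF1 sum at -0.20 and -0.30. DLG stood at 0.24 and 0.16, neither of them called (adjusted p = 0.0939 and 0.265 from limma). Calls were also lost for dd_Smed_v6_3858_0_2 at 3 weeks (-0.27) and dd_Smed_v6_3858_0_1 at 4 weeks (-0.28), with adjusted p = 0.163 and 0.158 from limma, and for the average of dd_Smed_v6_3858_0_1 (-0.13, adjusted p = 0.166 from limma). Of the differences between time points, those of AFDN at 3 weeks and 4 weeks minus 1 week lost the call (0.25 and 0.29, adjusted p = 0.172 and 0.0802 from limma), as did that of the RASSF1 sum at 3 weeks minus 1 week (-0.18, adjusted p = 0.136 from limma). The RASSF1 sum at 4 weeks minus 1 week stood at -0.29.

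Of the other genes with a listed role downstream of Hippo, 5 in number and mostly parts of the mitotic machinery, 1 was called higher and 1 lower at 3 weeks, where 15.5% of all tested transcripts were called in either direction, and 2 higher and 1 lower at 4 weeks, where 21.6% were. KIF2A, a kinesin that depolymerises microtubules, rose on the log2 scale by 0.20 at 3 weeks and 0.26 at 4 weeks (adjusted p = 0.00105 and 7.68e-05 from limma). BUB1, a spindle checkpoint kinase, was called at 4 weeks (0.23, adjusted p = 0.00499 from limma). ANAPC1, a subunit of the anaphase promoting complex, fell at 3 weeks (-0.17, adjusted p = 0.0343 from limma), and the mitotic kinase AURK1 at 4 weeks (-0.34, adjusted p = 0.0049 from limma). PLK1, another mitotic kinase, had values of 0.07 and -0.15 at these times, neither of them called (adjusted p = 0.599 and 0.141 from limma). The paper, which used sleuth and DESeq2, names polo-like kinase 1 among its differentially expressed genes. Of the 2 PLK1 transcripts only the more abundant was used here. Of the 12 genes listed for cell cycle progression, 6 were called higher and 3 lower at each of 3 and 4 weeks, against the same 15.5% and 21.6% of all tested. The study chose both lists on these libraries, so these counts are not independent evidence. For the 12 genes the median log2 fold change was 0.15 at both times. For the 5 genes downstream of Hippo it was 0.07 at 3 weeks and -0.13 at 4 weeks.

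Finally, the transcripts most like these genes over the 18 libraries were looked up by Pearson correlation of log2(TPM + 1), as a description, since libraries of one group share treatment and time. For AFDN this was dd_Smed_v6_6070_0_1 (r = 0.99, Spearman's rho 0.93), which the files do not name, and of the listed genes the insulin-like growth factor IGF (r = 0.98, Spearman's rho 0.91). AFDN correlated above 0.9 with 1118 tested transcripts, DLG with 6 and dd_Smed_v6_3858_0_2 with 0. The standard deviation within groups on the log2 scale was 0.039 for AFDN, 0.068 for DLG and 0.092 for dd_Smed_v6_3858_0_2. The RASSF1 sum, at 0.038, was not looked up, and the part of this scatter in the counts was not tested. The profile most like DLG was that of dd_Smed_v6_1762_0_1 (r = 0.94, Spearman's rho 0.93), and the profile most like dd_Smed_v6_3858_0_2 was that of dd_Smed_v6_12647_0_1 (r = 0.86, Spearman's rho 0.85). Among the listed genes, the growth factor progranulin (PGRN) was the most like DLG (r = 0.81, Spearman's rho 0.85) and lysosomal acid lipase (LAL) the most like dd_Smed_v6_3858_0_2 (r = 0.74, Spearman's rho 0.70). AFDN and DLG correlated with each other at r = 0.73 over the 18 libraries, and at -0.23 after removal of the group means.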

How the data were processed

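The authors sequenced stranded poly(A) libraries in paired ends, estimated abundances with kallisto 0.43.0 against the dd_Smed_v6 assembly and deposited them as TPM per transcript and library. Each library sums to the same total, so abundant transcripts that rise lower all others. Read numbers and any trimming were not stated in these sources. All 18 columns were matched to samples by library number, and groups were taken from the treatment labels.

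Transcripts averaging 1 TPM or more were compared as log2(TPM + 1) in limma 3.58.1 (R 4.3.3) with a variance trend, 1 mean per group, all 18 libraries and Benjamini-Hochberg adjustment at 0.05. The fit was repeated on TPM summed per assembly number. Exact permutation tests, with intervals from the shifts they do not reject at 0.05, were run in Python 3.11.15. Scripts were tested on simulated data. Figures were drawn with matplotlib 3.10.9. Alternatives were other pseudocounts, filters and scaling, array weights, fits of the compared groups alone, and leaving out libraries.

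Named were all transcripts with the assembly numbers of the 3 genes, the other genes of the study's cell cycle list (the most abundant transcript of each number) and the most alike transcript per gene. Members and lists were chosen with earlier results of these data known.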

Additional observations from a re-analysis of the deposited data

Results flagged for a closer look

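By limma's test of the difference itself, the effect of *hippo* RNAi on AFDN (dd_Smed_v6_9564_0_1) and on the RASSF1 sum differed between 1 week and each later time point. For AFDN the effect was larger at 3 weeks than at 1 week by 0.23 and at 4 weeks than at 1 week by 0.27 on the log2 scale (adjusted p = 0.0286 and 0.00744 from limma). Of all tested transcripts 5.11% and 9.72% were called in these comparisons. The call of AFDN at 3 weeks minus 1 week was lost in 8 of the 18 fits that each left out a single library. It was also lost in the fit of the compared groups alone. For the RASSF1 sum the effect was more negative at 3 weeks by -0.20 and at 4 weeks by -0.24 (adjusted p = 0.0112 and 0.00258 from limma). In the summed fit 7.38% and 13.3% of all numbers were called in these comparisons. With libraries 266O to 269O left out together, AFDN lost the call at 3 weeks and at 4 weeks minus 1 week. The RASSF1 sum then lost it at 3 weeks minus 1 week. Groups of 3 libraries were not tested for outlying libraries.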

How the results depend on the processing

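No paired analysis was possible because the labels carry no replicate numbers. Of 1223 values under alternative settings for 47 results, 1160 kept direction and side of the threshold, and no called result changed direction. The cause of the changes below was not tested, except that leaving out libraries or fitting the compared groups alone leaves fewer samples.

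dd_Smed_v6_3858_0_2 at 4 weeks became called with a minimum of 10 TPM (-0.21), median-ratio scaling (-0.22), array weights (-0.23) and the compared groups alone (-0.21). At 1 week, uncalled, it changed sign with scaling (-0.0073) and array weights (-0.0051), and at 4 weeks minus 3 weeks with array weights (-0.0016). A minimum of 10 TPM made DLG called at 4 weeks minus 1 week (0.23). With the compared groups alone, DLG at 4 weeks (0.23) and AFDN at 3 weeks minus 1 week (0.23, adjusted p = 0.104 from limma) lost the call, while DLG at 3 weeks minus 1 week (0.24) and dd_Smed_v6_3858_0_1 in *hippo (RNAi)* animals at 4 weeks against 1 week (-0.21) gained it.

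Without libraries 266O to 269O the calls were lost of dd_Smed_v6_3858_0_2 (-0.27) and DLG (0.24) at 3 weeks, of dd_Smed_v6_3858_0_1 (-0.28) and DLG (0.16) at 4 weeks, of the average of dd_Smed_v6_3858_0_1 (-0.13), of AFDN at 3 weeks (0.25) and 4 weeks (0.29) minus 1 week and of the RASSF1 sum at 3 weeks minus 1 week (-0.18). The uncalled 4 weeks minus 3 weeks of dd_Smed_v6_3858_0_2 (-0.033) and the RASSF1 share (-0.88 percentage points) changed sign.

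Leaving out each library in turn gave these ranges where a call or sign changed. AFDN ran from 0.20 to 0.28 at 3 weeks minus 1 week and from -0.0062 to 0.027 in controls at 4 weeks against 1 week. DLG ran from -0.026 to 0.025 at 1 week, 0.16 to 0.29 at 4 weeks, 0.16 to 0.29 at 4 weeks minus 1 week and -0.074 to 0.050 at 4 weeks minus 3 weeks. dd_Smed_v6_3858_0_2 ran from -0.083 to 0.063, -0.28 to -0.21 and -0.24 to -0.16 at 1, 3 and 4 weeks, -0.0019 to 0.075 at 4 weeks minus 3 weeks and -0.016 to 0.13 in controls. dd_Smed_v6_3858_0_1 ran from -0.12 to 0.033 at 1 week, -0.37 to -0.24 at 4 weeks and -0.035 to 0.12 in controls. The RASSF1 sum ran from -0.035 to 0.0093 at 1 week and the share from -0.32 (without 251O) to 1.44 percentage points.

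The number of all transcripts called moved by over 1.5 times as follows. At 1 week (244) it was 381 with a minimum of 10 TPM, 31 with the compared groups alone and 55 to 401 without single libraries. In controls at 4 weeks against 1 week (291) it was 556, 7 and 71 to 354, and in *hippo (RNAi)* animals (3686) it was 2054 with the compared groups alone. At 4 weeks minus 3 weeks (3, with 1917 at an unadjusted p under 0.05) it was 1 with a pseudocount of 0.1 or scaling, 5 with the compared groups alone and 0 to 8 without single libraries. Without 266O to 269O it was 2266 at 3 weeks (4441), 3065 at 4 weeks (6195), 4806 in the average (7330), 670 at 3 weeks minus 1 week (1468), 1216 at 4 weeks minus 1 week (2794), 8 at 4 weeks minus 3 weeks, 125 in controls and 1180 in *hippo (RNAi)* animals.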
